A study of Caenorhabditis elegans with 2 samples.

Results

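The 32 genes described here are those that the Ensembl annotation of Caenorhabditis elegans names as aminoacyl-tRNA synthetases, out of 19973 protein-coding genes outside the mitochondrial genome. The rule that picks them reads the gene name alone, a letter for the amino acid followed by ars- and a digit, and uses no measured value. The name rule covers all 20 amino acids, with 9 served by 1 named gene and 11 by more than 1. The RefSeq products of dars-2 and nars-2 name only a class II synthetase domain, and those of the remaining genes name a tRNA ligase or synthetase, or such an enzyme beside other products.

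Sites bound by the transcription factor HLH-15 were mapped by chromatin immunoprecipitation and sequencing (ChIP-seq) in 2 biological replicates that form 1 group. The worms were of strain OP566, genotype unc-119(tm4063) III; wgIs566, and carried hlh-15 fused at its C terminus to a GFP-FLAG tag. Hermaphrodite late embryos were taken whole, 3 hours after synchronisation by egg bleaching, and chromatin was sheared by sonication. The description names an antibody against GFP, while the antibody label names hlh-15. Both replicates came from this 1 transgenic line, the labels give no group without the tagged protein, and a list from whole embryos does not say in which cells a site was bound.

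Aminoacyl-tRNA synthetases join each amino acid to its tRNAs and so supply the ribosome with charged tRNA. They fall into class I and class II by the fold of the catalytic domain. Animal cells need charged tRNA in both the cytosol and the mitochondrion, and the enzymes of the 2 compartments come either from separate nuclear genes or from the same gene. The protein family of HLH-15, basic helix-loop-helix (bHLH) factors, binds E-boxes, which have the form CANNTG.

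The 4 peak lists on assembly ce11, which is the same as WBcel235, were read. The list of the pooled replicates held 17654 peaks, that of replicate 1 held 21250 and that of replicate 2 held 30000, and these lists include background. A shorter list of 407 held the peaks kept by the authors at their limit on the irreproducible discovery rate (IDR), which scores whether peak ranks hold between replicates. The signal of a peak is the authors' score, which has no stated scale and differs between the lists, so ranks within a list, with 1 the strongest, are given beside it. A peak was given to a gene when its summit, the base of highest signal, lay within 1 kb of any annotated transcript start of the gene. Read depth is unknown, and with 1 group there was no contrast to test, so counts stand beside the same count over all protein-coding genes.

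The share of synthetase genes with a peak was above that of protein-coding genes at large in each list. In the pooled list 21 of the 32, or 65.6%, had a peak, against 35.7% of all protein-coding genes. In the IDR list 2 of the 32, or 6.25%, had one, against 1.78%, and these were ears-2 and kars-1. Among the strongest 2000 pooled peaks, a limit chosen with these values known, 9 of the 32 had one, which is 28.1% against 6.87%. The 9 were ears-2, kars-1, mars-1, wars-1, nars-1, cars-1, vars-1, tars-1 and rars-1. The last of these, rars-1, ranked 1681 and the next gene, yars-2, ranked 2883.

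**Figure D1:**
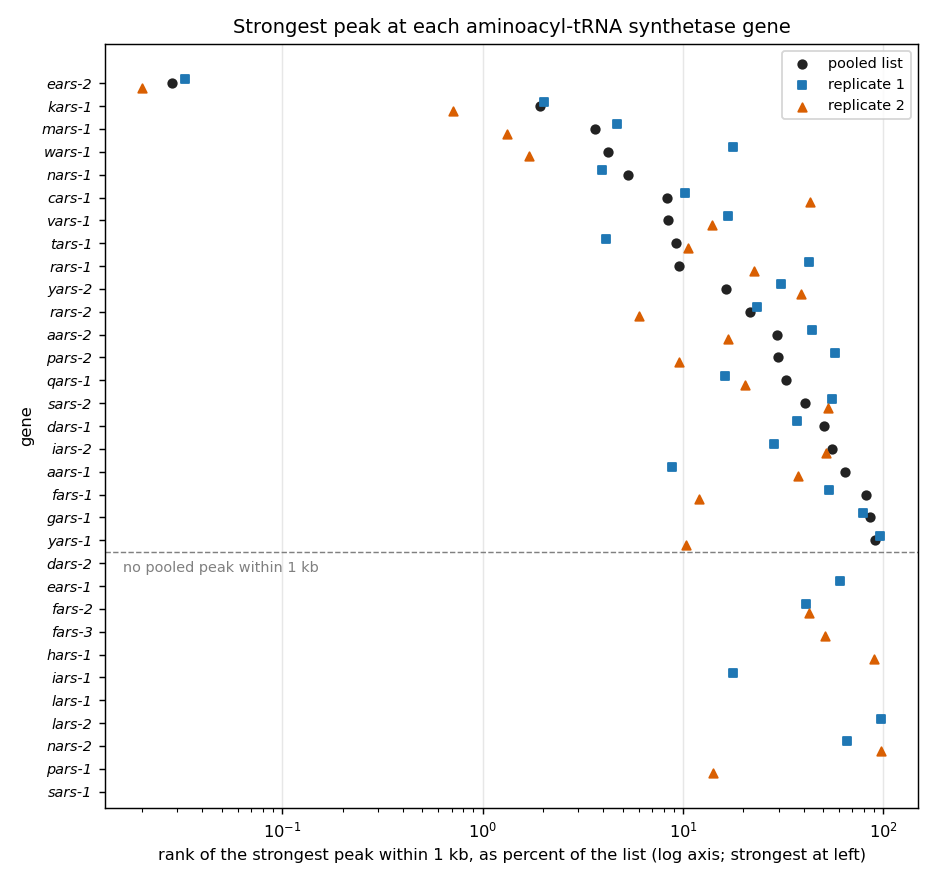
Rank of the strongest peak within 1 kb of a start of each synthetase gene, as a percent of its list on a log axis, for the pooled list (circles), replicate 1 (squares) and replicate 2 (triangles), with a missing symbol where the list held no such peak. The gene ears-2 stands at the far left in all 3 lists, kars-1 follows, and the 11 genes under the dashed line have no pooled peak.

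The replicates gave lower counts among their strongest peaks. Any peak of replicate 1 was found at 26 of the 32 genes, or 81.2%, against 40.8% of all genes, and any peak of replicate 2 at 23, or 71.9%, against 52.4%. Among the strongest 2000 peaks of replicate 1 there were 6 synthetase genes, or 18.8% against 6.58%, namely ears-2, kars-1, mars-1, nars-1, tars-1 and aars-1. Among the strongest 2000 of replicate 2 there were 5, or 15.6% against 6.65%, namely ears-2, kars-1, mars-1, wars-1 and rars-2. The genes in the strong part of both lists were ears-2, kars-1 and mars-1. The pooled list draws on the same libraries as the replicate lists, so it is not a further measurement.

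A peak in each replicate was found at 20 of the 32 genes, or 62.5%, against 27.6% of all genes. Summits of the replicates at most 100 bp apart were found at 11, or 34.4%, against 11.2%. These 11 were ears-2, kars-1, mars-1, wars-1, cars-1, vars-1, rars-1, yars-2, aars-2, pars-2 and sars-2. At aars-2 the matching summits were not at its strongest pooled peak, 316 bp upstream, as its only replicate 2 summit lay 892 bp upstream. The gene aars-2 is therefore absent from the comparison of replicates at the pooled summit below. With the strongest 5000 peaks of each replicate in place of the whole lists, 7 of the 32, or 21.9%, had a peak in each, against 5.55% of all genes.

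**Figure D2:**
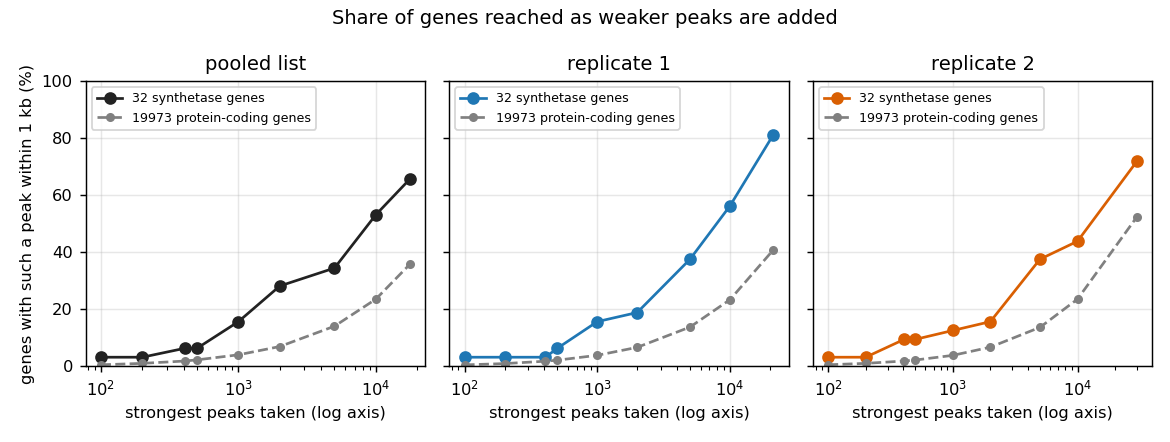
Percent of the 32 synthetase genes (solid) and of all 19973 protein-coding genes (dashed) with a peak within 1 kb when only the strongest peaks of the pooled list, replicate 1 or replicate 2 are taken, from 100 peaks to the whole list on a log axis. In the pooled list the synthetase genes reach 15.6% at 1000 peaks, 34.4% at 5000 and 65.6% at the whole list, where all genes reach 3.96%, 14% and 35.7%.

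The gene ears-2 (WBGene00001338, chromosome IV, 388686 to 390468, minus strand) stood far above the rest of the family. It encodes the mitochondrial glutamyl-tRNA synthetase, which in many bacteria and mitochondria charges the glutamine tRNA with glutamate as well, and the RefSeq product calls it nondiscriminating. Its pooled signal was 281 at rank 5, with 173 at rank 7 in replicate 1 and 107 at rank 6 in replicate 2. The summits lay 27, 18 and 17 bp upstream of its start, so that the lists placed the site at nearly the same base. The site lies between ears-2 and uncp-18, which starts 65 bp from the pooled summit on the other strand, and a peak there cannot be given to either gene alone. The peak ran from 390335 to 390629. Its core is shown because it is the strongest peak of the family. The sequence, chrIV:390469-390559 (ce11), is written 5′ to 3′ on the strand of ears-2 and covers the bases around the summit that lie outside the annotated UTRs of both genes. A second copy of the marked 6-mer lay downstream of the ears-2 start, in its 5′ UTR, and is shown with its flanks at chrIV:390418-390447. Capitals mark CCGCAC on either strand, which reads GTGCGG where it is on the opposite strand.
ears-2 summit: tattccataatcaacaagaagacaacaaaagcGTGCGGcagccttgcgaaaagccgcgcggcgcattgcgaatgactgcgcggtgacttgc
ears-2 site in the 5′ UTR: gcgctatcgaaaCCGCACccctcaatagaa

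The copies began 32 bp upstream and 60 bp downstream of the pooled summit of ears-2, counted along its strand. The whole 201-bp window at this summit held no E-box. The 6-mer CCGCAC was looked for because it led in earlier work on these same lists, in which the ears-2 peak took part, so its presence at ears-2 is no independent observation.

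The other member of the IDR list was kars-1 (WBGene00002238, chromosome II, 7070183 to 7072415, minus strand), the gene of lysyl-tRNA synthetase, a class II enzyme. Its pooled signal was 63.5 at rank 342, with 37.8 at rank 429 in replicate 1 and 31.8 at rank 213 in replicate 2. The summits lay 302, 274 and 287 bp upstream of its start, between genes and with no other protein-coding start within 1 kb of the pooled summit. The lowest signal in the IDR list was 58.9, so kars-1 was close to that limit, whereas ears-2 was well inside it. Among the strongest 407 peaks of each replicate, as many as the IDR list holds, the family had 1 gene in replicate 1, or 3.12% against 1.72% of all genes, and 3 in replicate 2, or 9.38% against 1.79%. The kars-1 summit window, chrII:7072617-7072817 on the strand of the gene, is shown as a strong site that held neither an E-box nor CCGCAC, and so has no capitals.
kars-1: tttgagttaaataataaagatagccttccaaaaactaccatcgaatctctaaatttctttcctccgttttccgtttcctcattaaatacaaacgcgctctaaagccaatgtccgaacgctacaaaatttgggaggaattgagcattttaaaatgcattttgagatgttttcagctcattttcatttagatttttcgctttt

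The genes mars-1 and wars-1 encode cytosolic class I enzymes and followed in the pooled list. The gene mars-1 (WBGene00003415, chromosome IV, 11631941 to 11635487, minus strand), for methionine, which is also the amino acid that starts translation, had a pooled signal of 48.0 at rank 640. Its strongest peak had a signal of 29.2 at rank 993 in replicate 1 and 25.5 at rank 399 in replicate 2. The replicate 1 peak lay 240 bp upstream of the start, while the pooled and replicate 2 summits lay 436 and 392 bp upstream. At the pooled summit itself replicate 1 had a weaker peak, with a signal of 26.5 at rank 1459. The gene F58B3.6 starts 725 bp from the pooled summit on the other strand.

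The tryptophan gene wars-1 (WBGene00006945, chromosome V, 18852704 to 18859221, minus strand) differed from the genes above in the position of its site. Its summits lay in an intron of wars-1, 676 bp downstream of a start in the pooled list and in replicate 1 and 701 bp in replicate 2. The pooled signal was 45.5 at rank 745. Replicate 2 placed it at rank 510 with a signal of 23.7, and replicate 1 only at rank 3791 with a signal of 21.3, so its place among the strong peaks rests on replicate 2. The window at this summit, chrV:18858445-18858645 on the strand of the gene, is shown with that of sars-2, chrIV:4357002-4357202, because both held E-boxes, which are in capitals.
wars-1: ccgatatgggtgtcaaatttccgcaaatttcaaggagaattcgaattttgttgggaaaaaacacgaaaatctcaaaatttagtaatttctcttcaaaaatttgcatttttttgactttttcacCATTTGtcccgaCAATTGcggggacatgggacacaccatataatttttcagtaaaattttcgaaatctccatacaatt
sars-2: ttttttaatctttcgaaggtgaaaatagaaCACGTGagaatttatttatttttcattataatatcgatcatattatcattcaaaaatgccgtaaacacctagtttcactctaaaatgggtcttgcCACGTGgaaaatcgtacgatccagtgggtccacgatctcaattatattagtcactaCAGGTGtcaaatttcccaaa

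The E-boxes of wars-1 began 23 and 35 bp downstream of its pooled summit. The window of sars-2, a seryl-tRNA synthetase gene, was the only one among the 21 with the E-box CACGTG, which it held 70 bp upstream and 25 bp downstream of the summit, beside a CAGGTG 81 bp downstream. Its signal was low, with 25.4 at rank 7155 among pooled peaks, 15.6 in replicate 1 and 9.74 in replicate 2. The replicate summits lay 524 and 536 bp upstream of its start, and the gene W03B1.9 starts nearer, 123 bp from the pooled summit on the other strand.

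The valine gene vars-1 (WBGene00006935, chromosome V, 8031411 to 8035025, plus strand) had a pooled signal of 37.4 at rank 1480. Its replicate signals were 21.6 at rank 3559 and 14.4 at rank 4157. The pooled summit lay 207 bp upstream of the start, within the 3′ UTR of oma-2, a zinc finger gene of oocyte maturation on the same strand. The annotated end of oma-2 is 196 bp from vars-1. The arginine gene rars-1 (WBGene00004679, chromosome III, 4914088 to 4917177, minus strand) had a pooled signal of 36.3 at rank 1681, but ranked only 8982 in replicate 1 and 6815 in replicate 2. Its summits lay in its own coding sequence, 182 bp downstream of a start in the pooled list. The gene rpb-8, for an RNA polymerase subunit, ends 65 bp upstream of rars-1 on the same strand.

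At tars-1, nars-1 and cars-1 the replicates did not match well. The threonine gene tars-1 (WBGene00006617, chromosome II, 11691325 to 11695657, minus strand) had a pooled signal of 36.5 at rank 1629, with a summit 619 bp upstream of an internal start. That summit lies in an intron of tars-1 and in the coding sequence of kel-1, a kelch gene on the other strand that starts 84 bp away. Replicate 1 had no peak within 100 bp of it, and replicate 2 had one with a signal of 11.1 at rank 10907. The strongest peaks of the replicates lay elsewhere, 488 bp upstream in replicate 1 with a signal of 30.4 and 65 bp upstream in replicate 2 with a signal of 15.3.

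The asparagine gene nars-1 (WBGene00003815, chromosome I, 7088030 to 7090062, minus strand) had a pooled signal of 42.8 at rank 937 and a replicate 1 signal of 30.6 at rank 838. Replicate 2 had no peak within 1 kb of its starts. The pooled summit lay 446 bp from nars-1 but 232 bp from nduf-6, a gene of mitochondrial complex I on the other strand. The cysteine gene cars-1 (WBGene00000800, chromosome I, 2623099 to 2628577, minus strand) had a pooled signal of 37.5 at rank 1468 and a replicate 1 signal of 24.2 at rank 2173. In replicate 2 its signal was 10.5 at rank 12915, so the site was near the start in both replicates but weak in the latter. Its pooled summit lay 60 bp upstream of an internal start, in a coding exon of cars-1.

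The 12 genes with a weaker pooled peak had pooled signals from 31.6 down to 19.6, at ranks from 2883 to 16094. From strongest to weakest they were yars-2, rars-2, aars-2, pars-2, qars-1, sars-2, dars-1, iars-2, aars-1, fars-1, gars-1 and yars-1. The tyrosine gene yars-2 had a replicate 1 signal of 18.6 at rank 6527 and a replicate 2 signal of 10.9 at rank 11695, with its replicate 1 summit 203 bp upstream of its start. The pooled summit of iars-2 was the farthest from a start among the 21, at 942 bp, and lay in the coding sequence of C25A1.16. The lowest signal in the pooled list was 19, so yars-1 and gars-1 lay close to its floor. In replicate 2 yars-1 ranked higher, at 3110 with a signal of 15.4, while gars-1 had no peak there. The enzymes of rars-2, pars-2 and aars-1 are mitochondrial by their product names, and those of aars-2 and dars-1 are cytosolic. Although its pooled rank was 3839, rars-2 was among the strongest 2000 peaks of replicate 2, with a signal of 17.4 at rank 1804. Likewise aars-1, with a pooled rank of 11301, was among those of replicate 1, with a signal of 25 at rank 1872. Replicate 1 had no peak within 100 bp of the pooled summit of rars-2, and replicate 2 had none at that of aars-1.

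No pooled peak was found at 11 genes. Of these, dars-2, lars-1 and sars-1 had no peak in any of the 4 lists, so the cytosolic serine gene sars-1 and the leucine gene lars-1 gave no site here. The other 8 had a peak in a replicate list, which fars-2 and nars-2 had in both, though in neither gene were the summits within 100 bp of each other. At nars-2 they lay at different starts, at 11492768 in replicate 1 and 11500966 in replicate 2. The nars-2 peak of replicate 2 ranked 29314 of 30000. Among these 8 the highest ranked in replicate 1 was iars-1, for the cytosolic isoleucine enzyme, with a signal of 21.3 at rank 3776. It had no peak in replicate 2. In replicate 2 the highest ranked was the proline gene pars-1, with a signal of 14.4 at rank 4238 and no peak in replicate 1. The genes ears-1 and lars-2 had a peak in replicate 1 alone, and fars-3 and hars-1 in replicate 2 alone, at rank 12900 or weaker. The fars-3 product is the beta subunit of the phenylalanine enzyme, which in the cytosol is built of unlike subunits. The gene fars-2 had no pooled peak either, and fars-1 had a weak one at rank 14406. In replicate 2, however, fars-1 had a peak with a signal of 14.9 at rank 3589.

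Across the 10 genes with peaks of both replicates within 100 bp of the pooled summit, the replicate signals rose together, but ears-2 set much of this. Pearson's r of the log2 signals was 0.93 and Spearman's rho was 0.73, and without ears-2, over 9 genes, they were 0.78 and 0.63. These values describe genes that share the same libraries and that were required to have a peak in both. Of the remaining 11 genes with a pooled peak, 6 had a peak of replicate 1 alone at that summit, 4 had one of replicate 2 alone, and gars-1 had neither.

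**Figure D3:**
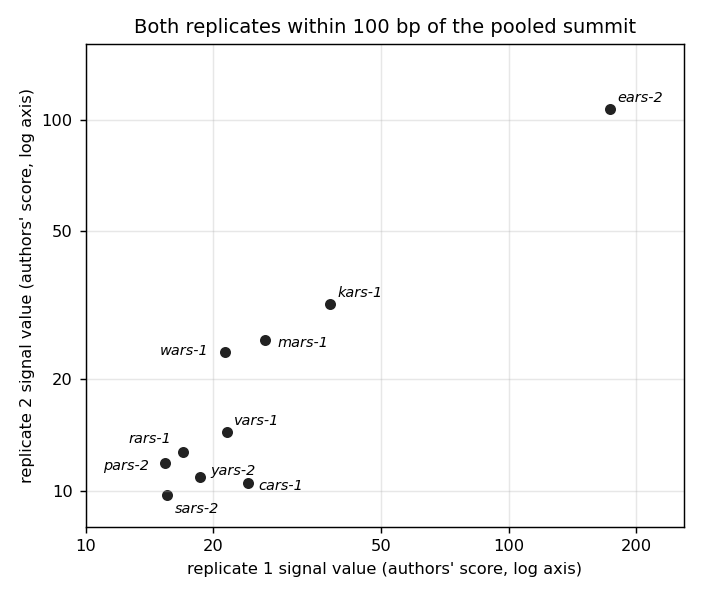
Signal in replicate 1 against signal in replicate 2, both the authors' score on log axes, for the 10 synthetase genes with a peak of each replicate within 100 bp of the pooled summit. The point of ears-2, at 173 and 107, lies apart from the other 9, of which kars-1 is the highest at 37.8 and 31.8.

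The position of the summits depended on which start was taken. In the pooled list 16 of the 21 strongest summits, or 76.2%, were upstream of the nearest start of the gene, against 59.8% over all protein-coding genes with a pooled peak. Of these 16, 4 lay inside the gene, upstream of an internal start, at aars-1, cars-1, qars-1 and tars-1. Counted from the outermost start of each gene alone, 12 of the 21 were upstream, or 57.1%, against 59.6% of all genes with a pooled peak within 1 kb of that start. The median distance from a start was 302 bp, against 389 bp over all such genes, and 15 of the 21, or 71.4%, lay within 500 bp, against 61%. Of the 21 summits 8, or 38.1%, lay between genes, against 44.3% over all protein-coding genes with a pooled peak. A start of another protein-coding gene lay within 1 kb of 10 of them, or 47.6%, against 32.1%. The peaks of nars-1, tars-1, sars-2 and iars-2 were lost when a peak was given only to the gene with the nearest start. By this rule 17 genes in place of 21 had a pooled peak, and 7 in place of 9 were among the strongest 2000. The share over all protein-coding genes was not taken by this rule. The nearest tRNA or snoRNA gene to any of these summits was 1076 bp away, at nars-1. A gene on the same strand ended within 500 bp upstream of 11 of the 32 genes, or 34.4%, against 18.1% of all protein-coding genes.

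**Figure D4:**
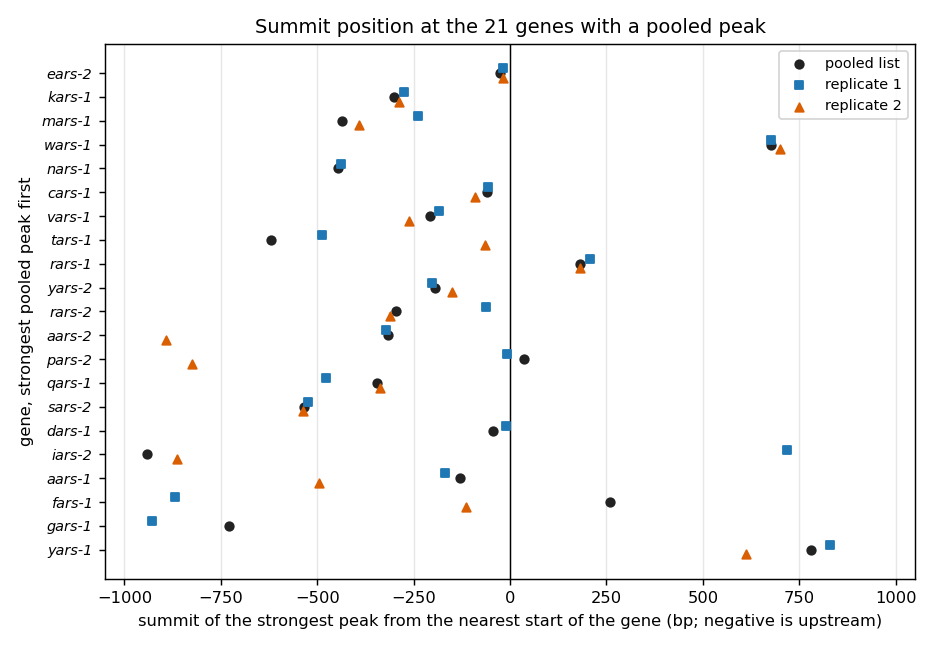
Distance in bp of the strongest summit from the nearest start of each of the 21 synthetase genes with a pooled peak, negative upstream, for the pooled list (circles), replicate 1 (squares) and replicate 2 (triangles). The symbols fall together at ears-2, kars-1, wars-1 and sars-2, and lie far apart at tars-1, iars-2 and fars-1.

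When the genes with a pooled peak were placed by the rank of that peak, the synthetase genes had a median at 21.7% of the list and all protein-coding genes with such a peak at 38.6%. The medians were 29.5% against 39.3% in replicate 1 and 16.7% against 38.5% in replicate 2. These medians cover only genes that had a peak in the list concerned.

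By product name 10 enzymes were cytosolic, 4 mitochondrial and 18 had no compartment given. Over all protein-coding genes 35.7% had a pooled peak, 6.87% were among the strongest 2000 and 1.78% were in the IDR list. For the strongest 2000 of replicates 1 and 2 the shares were 6.58% and 6.65%. Of the 10 cytosolic ones none was in the IDR list, 8, or 80%, had a pooled peak and 6, or 60%, were among the strongest 2000. These 6 were mars-1, wars-1, nars-1, cars-1, tars-1 and rars-1. All 4 mitochondrial ones had a pooled peak, but ears-2 alone was among the strongest 2000. The replicates did not keep this order, with 3 of the 10 cytosolic and 2 of the 4 mitochondrial genes among the strongest 2000 of replicate 1, and 2 of each among those of replicate 2. Of the 18 without a compartment 9, or 50%, had a pooled peak, and kars-1 and vars-1, or 11.1%, were among the strongest 2000. Of 15 class I genes 11, or 73.3%, had a pooled peak and 6, or 40%, were among the strongest 2000. Of 17 class II genes these were 10, or 58.8%, and 3, or 17.6%. Among the strongest 2000 of replicate 1 there were 2 class I and 4 class II genes, and among those of replicate 2 there were 4 and 1, so the replicates differed in the order of the classes.

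Genes that served an amino acid as its 1 named gene were compared with the rest, a division made after the values were seen. Of 9 such genes, for cysteine, glycine, histidine, lysine, methionine, glutamine, threonine, valine and tryptophan, 8 had a pooled peak and 6 were among the strongest 2000. Of the 23 other genes 13 had one and 3 were among the strongest 2000, namely ears-2, nars-1 and rars-1. Over all protein-coding genes 35.7% had a pooled peak and 6.87% were among the strongest 2000. Among the strongest 2000 of replicate 1 there were 3 of the 9 and 3 of the 23, and among those of replicate 2 there were 3 and 2. RefSeq gives methionine, valine and tryptophan a further ligase gene outside the name rule, and without these 3 the counts were 5 and 3 of 6. Where an amino acid had several genes, the strong peak was at ears-2 and not at ears-1, which had no pooled peak, and at rars-1 more than rars-2 in the pooled list, but the replicates ranked rars-2 above rars-1.

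E-boxes were about as frequent in the windows of the family as in peaks in general. In the 201 bp around the pooled summits, CANNTG was found in 11 of 21 windows, or 52.4%, against 51.7% of all pooled windows and 51.6% of IDR windows, and CACGTG in 1, or 4.76%, against 3.56% of all pooled windows. The 6-mer CCGCAC, read on both strands, was found in 4 of 21, or 19%, against 4.24% of all pooled windows, 9.1% of the strongest 2000 and 13.5% of IDR windows. The 4 were ears-2, aars-2, pars-2 and qars-1. CGCACA, which overlaps it in CCGCACA, was found in 2, or 9.52%, against 6.14% of all pooled windows, 11.6% of the strongest 2000 and 20.4% of IDR windows. Both windows, those of aars-2 and pars-2, also held CCGCAC. These 6-mers were taken up because they led in earlier work on these same lists, so their shares are no independent observation. The median GC content was 37.8% against 36.8% over all pooled windows.

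The site of qars-1, the glutamine gene, is shown as a further copy of CCGCAC, in an intron of qars-1 at chrIV:15012349-15012549 on the strand of the gene. The capitals begin 26 bp downstream of the pooled summit, whose signal was 26.8, with 13.1 in replicate 2 and no replicate 1 peak within 100 bp.
qars-1: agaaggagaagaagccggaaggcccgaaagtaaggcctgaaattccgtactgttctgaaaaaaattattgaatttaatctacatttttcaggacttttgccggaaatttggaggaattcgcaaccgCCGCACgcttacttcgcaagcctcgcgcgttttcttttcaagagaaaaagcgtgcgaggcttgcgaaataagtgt

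In promoters, taken as 250 bp before to 50 bp after the outermost start, CCGCAC was found in 5 of the 32 genes, or 15.6%, against 4.31% of all 19973. These were aars-2, ears-2, hars-1, pars-2 and tars-1, of which hars-1 had no pooled peak. At aars-2, ears-2 and pars-2 the summit window held it as well, so the counts overlap and are no second observation. CANNTG was found in 17 of 32, or 53.1%, against 69.4%, CACGTG in 1, or 3.12%, against 5.82%, and CGCACA in 3, or 9.38%, against 7.19%.

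The other genes of translation gave a point of reference. Of the 78 cytosolic ribosomal protein genes 61, or 78.2%, had a pooled peak, 22, or 28.2%, were among the strongest 2000, and 7, or 8.97%, were in the IDR list. The 7 were rpl-3, rps-24, rps-19, rps-26, rpl-15, rpl-20 and rpl-35, with pooled signals from 119.5 down to 68.9, so that none reached ears-2 and all were above kars-1. Of the 70 mitochondrial ribosomal protein genes 35, or 50%, had a pooled peak, 8, or 11.4%, were among the strongest 2000, and 4 were in the IDR list, namely mrpl-23, mrpl-12, mrpl-39 and mrpl-18, with signals from 88.7 to 59.5. The mrpl-23 summit lay 939 bp upstream of its start, and replicate 2 had no summit within 1 kb of mrpl-23. Over all protein-coding genes 35.7% had a pooled peak, 6.87% were among the strongest 2000 and 1.78% were in the IDR list. The differences between these lists were not tested.

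Of 19 genes picked as related to tRNA, ligases aside, 11, or 57.9%, had a pooled peak, against 35.7% of all protein-coding genes. Only rtcb-1 was in the IDR list, which is 5.26% against 1.78%. It alone was also among the strongest 2000, where 5.26% was below the 6.87% of all genes. The gene rtcb-1, for the ligase that joins tRNA exons in splicing, had a pooled signal of 60.2 at rank 398, with a summit 614 bp upstream of its start, and ranked 314 in replicate 1 and 2276 in replicate 2. The genes of the kinase and adaptor that sense uncharged tRNA, gcn-2 and gcn-1, had pooled signals of 20.8 and 32.3, at ranks 13746 and 2662. Pooled peaks were missing at elpc-1 and elpc-3, of the Elongator complex that modifies tRNA, and at the transcription factor gene atf-4, while elpc-2 had one with a signal of 29.1. They were also missing at hpo-31, seld-1, pus-1, brf-1 and rpc-2. In replicate 2 elpc-1 had a peak with a signal of 15.6 at rank 2946, and atf-4 one of 12 at rank 8442. Of the genes without a pooled peak only elpc-3 and rpc-2 had none in either replicate.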

How the data were processed

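Per the submitters' notes and labels, the authors derived the replicate and pooled lists from immunoprecipitated libraries with a control library, and the IDR list from these; the deposited signal per peak is their score. Which aligner and peak caller they ran is not given in the sources used here. Only ce11 lists were read, and those on ce10 were not used here. Summits were set against 29784 transcript starts of 19973 genes in Ensembl release 115, and sequence was read from the NCBI WBcel235 assembly, with Python 3.11.15, pandas 2.3.3 and numpy 2.4.6. Peaks tied in signal share the better rank. The strongest peak within 1 kb was taken for each gene and list. Compartments come from RefSeq product names, classes from the amino acid. Windows reached 100 bp to each side of the summit. All members were named, with full values for those in the IDR list or the strongest 2000 pooled peaks. The members and lists were chosen with earlier results of these data known. The assignment was tested on simulated peaks. Depth is unknown, so no interval is given.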

Additional observations from a re-analysis of the deposited data

How the results depend on the processing

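Of 52 alternatives to 7 results, 43 were planned and 9 chosen after seeing the data. In 47 the value stayed within 1.5 times the main one, or for the median rank within 1 SD of the replicates. Some of these could hardly move. Dropping summits at most 100 bp from genes for tRNA or snoRNA changed none of the 7 results. The nearest such gene to a strongest pooled summit was 1076 bp away. The median rank was judged by the spread of the replicates, whose medians of 29.5% and 16.7% were themselves alternatives. A count of 21 among 32 genes had little room to rise by 1.5 times. The 47 of 52 is therefore no measure of how firm the results are. Where a replicate was left out, the list of the other replicate stood in, and no pooled or IDR list was remade. The IDR count of 2 fell to 1 in the stronger part of the IDR list, which kept ears-2. Among the strongest 407 peaks of replicate 1 it was 1, and among those of replicate 2 it was 3. The count of 20 genes with a peak in both replicates fell to 7 with the strongest 5000 peaks of each. The count of 9 genes among the strongest 2000 pooled peaks was 5 among the strongest 1000, and 5 to 6 among the strongest 2000 of a single replicate. This count was 7 when a peak was given only to the gene with the nearest start. The count of 21 genes with a pooled peak ran from 16 at 500 bp to 24 at 2 kb, which added fars-2, hars-1 and lars-2. The share over all protein-coding genes was not taken at these distances, so whether the difference from it held there is not known. At 2 kb fars-1 also reached an IDR peak, 1392 bp downstream of its start with a signal of 88.7. The count of 16 summits upstream of a start fell to 12 with the outermost start alone, which is within 1.5 times. Its comparison did not hold, however, as 76.2% against 59.8% of all genes became 57.1% against 59.6%. No paired analysis was possible because the labels give 1 group. Having 2 replicates, unknown depth and lists that hold background limit what a weak peak or a missing one can show.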

Other observations

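RefSeq places 4 tRNA ligase genes outside the name rule, glp-4, Y105E8A.20, prx-10 and K03B4.1. The valine gene glp-4 had no pooled peak, whereas vars-1 had one with a signal of 37.4. In replicate 1 their signals were 15.8 for glp-4 and 21.6 for vars-1. In replicate 2 they were close, at 13.6 and 14.4, with ranks 5368 and 4157. Y105E8A.20, which RefSeq calls mars-2, had no pooled peak and lies 109 bp upstream of yars-1 on the same strand. At prx-10, whose RefSeq products include both a peroxisome biogenesis factor and the mitochondrial tryptophan enzyme, the pooled signal was 24 at rank 8699. K03B4.1, named a seryl-tRNA synthetase, had 21.4 at rank 12578.

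The IDR peak that lay 1392 bp downstream of the fars-1 start, with a signal of 88.7 and rank 158, is the peak counted for mrpl-23, 939 bp upstream of its start. None of the 32 synthetase genes is on the X chromosome, which holds 13.7% of protein-coding genes. A pooled peak was found at 7 of 9 on chromosome I, 4 of 5 on II and 3 of 6 on III. On IV it was at 5 of 8 and on V at 2 of 4. The share over all protein-coding genes was 35.7%, and it was not taken per chromosome.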
